A study of Mus musculus with 53 samples.

Results

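The genes described here are those that the transcription factor p53 is known to switch on, in mouse embryonic stem (ES) cells that lack a subunit of Polycomb repressive complex 2 (PRC2), in 4 differentiated cell types and in wild-type ES cells. The list names 10 genes: Trp53 itself, which encodes p53, and Fas, Pmaip1, Mdm2, Bbc3, Bax, Ccng1, Trp53inp1, Sesn2 and Perp. A gene was matched to the probe sets that carry its symbol and no other, and the brightest of them on average led. Of the 10 genes, 8 had such a probe set, out of 18193 genes in all, and each of the 8 passed the filter on low values. Trp53 and Bax were not analysed here.

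p53 is a sensor of DNA damage and of other stress, and it is held low by Mdm2, a ubiquitin ligase that is itself a p53 target. Active p53 halts the cell cycle or starts apoptosis through its target genes. In ES cells it is also known to act against self-renewal. PRC2 methylates lysine 27 of histone H3 and so represses many developmental genes, among them the Cdkn2a locus, whose Arf product blocks Mdm2.

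The series holds 53 Affymetrix arrays in 15 groups. Ezh2-null ES cells, which lack 1 of the alternative catalytic subunits of PRC2 and keep the other, Ezh1, were sampled undifferentiated at day 0 (6 arrays) and after withdrawal of the cytokine LIF at day 2 (4), day 6 (5) and day 8 (2). Eed-null ES cells, which lack a core subunit that both forms of the complex share, were sampled at day 0 (5), day 2 (2) and day 6 (2). Wild-type ES cells came from day 0 (7; lines J1, CJ7 and E14tg1), day 2 (4), day 6 (5; J1 and CJ7 at both days) and day 8 (2; CJ7 alone). The differentiated cells were T-GFP mesoendodermal cells, which express GFP from the brachyury (T) promoter (2 arrays), Sox1-GFP neuronal progenitors (3), neuronal stem cells derived from progenitors (2) and MEF, mouse embryonic fibroblasts (2). No line is given for the mutants, and genotype and line cannot be told apart. The labels name no age, sort purity or source animal, and the ES cells had been grown on feeder cells that were depleted before harvest. Arrays are labelled biological replicates with no word on separate cultures, so the p-values measure the spread between these arrays.

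Values are the deposited signal intensities, in arbitrary signal units, with array medians from 50.5 to 63. Changes are on the log2(signal + 32) scale, which understates the change of dim genes. A gene is called when limma's adjusted p is under 0.05 and the change is at least 2-fold, that is 1 or more on the log2 scale. Ezh2 signal was 99.3 to 213.8 in the Ezh2-null group means, against 659.2 to 1451.4 in wild type on the same days. Eed signal was not lower in the cells labelled Eed-null (2956.3 ± 129.9, SD, n = 5, at day 0) than in wild type (2535.6 ± 275.8, SD, n = 7), so its probe set gives no check of that label. The marker lists fitted the labels of the differentiated cells: the ES cell marker sum was 23763.3 to 28731.6 in the 3 genotypes at day 0, and summed fibroblast markers were 31548.2 to 36040.5 in MEF, summed neural markers 5749.1 to 8074.2 in the neural cells and summed streak markers 3819.3 to 5889.7 in T-GFP cells. The arrays of days 2 and 6 split into 2 sets by a probe-level score. Replicates 1 and 2 of wild-type and Ezh2-null cells made up the first set, and the other arrays of those days, all Eed-null ones included, the second.

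Upstream sequence was available for 7 of the 10 genes among the RefSeq windows used here (build GRCm38.p6), which leave out a chromosome. The 250 bases before the start site are shown for Fas, Mdm2 and Ccng1. Fas and Mdm2 were called in Ezh2-null against wild-type cells at day 6, and Ccng1 in both mutants at day 6 against day 0. Capitals mark a match to the p53 decamer, the consensus unit that p53 dimers bind, searched on both strands.

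Fas (chr19:34290409-34290658, plus strand): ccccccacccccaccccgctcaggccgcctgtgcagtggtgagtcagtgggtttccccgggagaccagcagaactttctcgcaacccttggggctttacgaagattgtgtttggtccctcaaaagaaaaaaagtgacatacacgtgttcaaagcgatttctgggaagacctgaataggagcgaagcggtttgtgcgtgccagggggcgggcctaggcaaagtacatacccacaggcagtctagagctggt

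Mdm2 (chr10:117710759-117711008, minus strand): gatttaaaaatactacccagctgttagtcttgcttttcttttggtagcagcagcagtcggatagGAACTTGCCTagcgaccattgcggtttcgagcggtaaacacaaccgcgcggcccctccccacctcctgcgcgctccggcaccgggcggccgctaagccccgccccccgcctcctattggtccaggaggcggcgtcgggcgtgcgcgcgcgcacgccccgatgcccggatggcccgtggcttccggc

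Ccng1 (chr11:40755287-40755536, minus strand): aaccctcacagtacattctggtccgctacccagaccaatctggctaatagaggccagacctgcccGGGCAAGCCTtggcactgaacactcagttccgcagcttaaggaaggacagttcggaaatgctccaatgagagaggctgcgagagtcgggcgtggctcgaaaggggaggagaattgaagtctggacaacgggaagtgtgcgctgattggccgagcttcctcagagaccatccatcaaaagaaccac

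The match in Mdm2 starts 186 bases before the start site and that in Ccng1 185 bases before it. The Fas window holds no match, nor do the 3 windows of Bbc3, 2 of which overlap, or that of Sesn2. Pmaip1, Trp53inp1 and Perp are the genes with no window. Of 7 windows of the genes measured here 2 held a decamer, against 2341 of 32851 windows (7.1%) of the same length over all genes searched. A match is not a binding site, and the known p53 sites of mouse Mdm2 lie in its first intron, outside the window.

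Fas, Pmaip1, Bbc3 and Perp act in cell death. Fas encodes a death receptor of the cell surface. Its signal was 59.8, 77.6, 158.3, 116.3 and 139.2 in Ezh2-null cells at day 6 and 96.6 and 68.0 in Eed-null cells, against 22.5, 35.7, 37.5, 9.8 and 26.2 in wild-type cells. Every mutant array of day 6 lay above every wild-type array of that day. The share of all genes whose arrays separate was not taken for any comparison. Separation is therefore not read as particular to these genes, here or below. At day 0 Fas was dim in all 3 genotypes. Ezh2-null arrays spanned 7.3 to 16.3 (median 14) and Eed-null arrays 12.3 to 18.2, against 9.2 to 28.9 (median 21.5) in wild-type cells. At day 2 it was 15.2 to 30.7 in Ezh2-null and 17.8 and 16.5 in Eed-null cells, against 20.8 to 27.6 in wild type. At day 8 it was 70.2 and 66.1 in Ezh2-null cells, against 47.4 and 45.8 in wild-type cells. Fas lay above its array's median on 10 of 53 arrays, so most of these levels are low for the array. The 10 were arrays of MEF and of the mutants at days 6 and 8. The highest wild-type ES value, 47.4, lay below the lowest array median, 50.5. Fas thus passed the filter only through arrays of groups where it is high, which limits what its tests can show.

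Pmaip1 encodes Noxa, a BH3-only protein that counters Mcl1. Its signal set the Eed-null cells apart on every day sampled. It was 1432.7 to 1808.4 in Eed-null cells at day 0, against 185.8 to 466 (median 398.4) in wild-type cells. At day 2 it was 1456.9 and 1573.8 in Eed-null cells, against 437.8 to 668.4 in wild-type cells. At day 6 it was 1721.8 and 1715.9 in Eed-null cells, against 459.1 to 764.9 in wild-type cells. Eed-null and wild-type arrays did not overlap on any of the 3 days. In Ezh2-null cells it was 277.4 to 378.7 (median 316.25) at day 0, 589.9 to 834.3 at day 2, 484.5 to 1216.3 at day 6 and 682.3 and 911.1 at day 8.

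Perp encodes a membrane protein of desmosomes that is induced by p53 in dying cells. Its signal was 1763.1, 2990.6, 4659.4, 3959.7 and 4145.0 in Ezh2-null cells at day 6 and 3033.0 and 3121.3 in Eed-null cells, against 1323.3, 1958.7, 2003.8, 1608.6 and 1607.7 in wild-type cells. All but 1 of the 7 mutant arrays lay above all wild-type arrays. The exception was Ezh2-null replicate 1. Bbc3 encodes Puma, another BH3-only protein, and its groups lay closer together. Its day 6 arrays spanned 242.8 to 415.8 in the Ezh2-null group and read 313.4 and 332.0 in the Eed-null group, against 192.0 to 278.6 in wild-type cells.

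Mdm2, Ccng1, Trp53inp1 and Sesn2 act in feedback, arrest and stress defence. Mdm2 signal was 3792.6, 4667.6, 5763.4, 4864.3 and 5077.0 in Ezh2-null cells at day 6 and 3620.0 and 3540.0 in Eed-null cells, against 2486.7, 3079.9, 2505.6, 2086.0 and 1807.7 in wild-type cells. All mutant arrays lay above all wild-type arrays. Ccng1, which encodes cyclin G1, a cofactor of a phosphatase that acts on Mdm2, had 5079.8 to 5805.8 in Ezh2-null cells and 4510.0 and 4477.4 in Eed-null cells at day 6, against 2617.1 to 4644.1 in wild-type cells. The Ezh2-null arrays lay above wild type, and the Eed-null ones fell inside the wild-type range. Trp53inp1, whose product helps p53 phosphorylation, spanned 3758.2 to 4754.2 in the Ezh2-null group and read 3650.6 and 3654.2 in the Eed-null group, against 2242.2 to 3366.1 in wild-type cells. Sesn2 encodes a stress protein that restrains mTORC1. Its leading probe set spanned 748.6 to 896.4 in the Ezh2-null group at day 6 and read 791.1 and 988.5 in the Eed-null group, against 591.9 to 744.8 in wild-type cells.

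**Figure D1:**
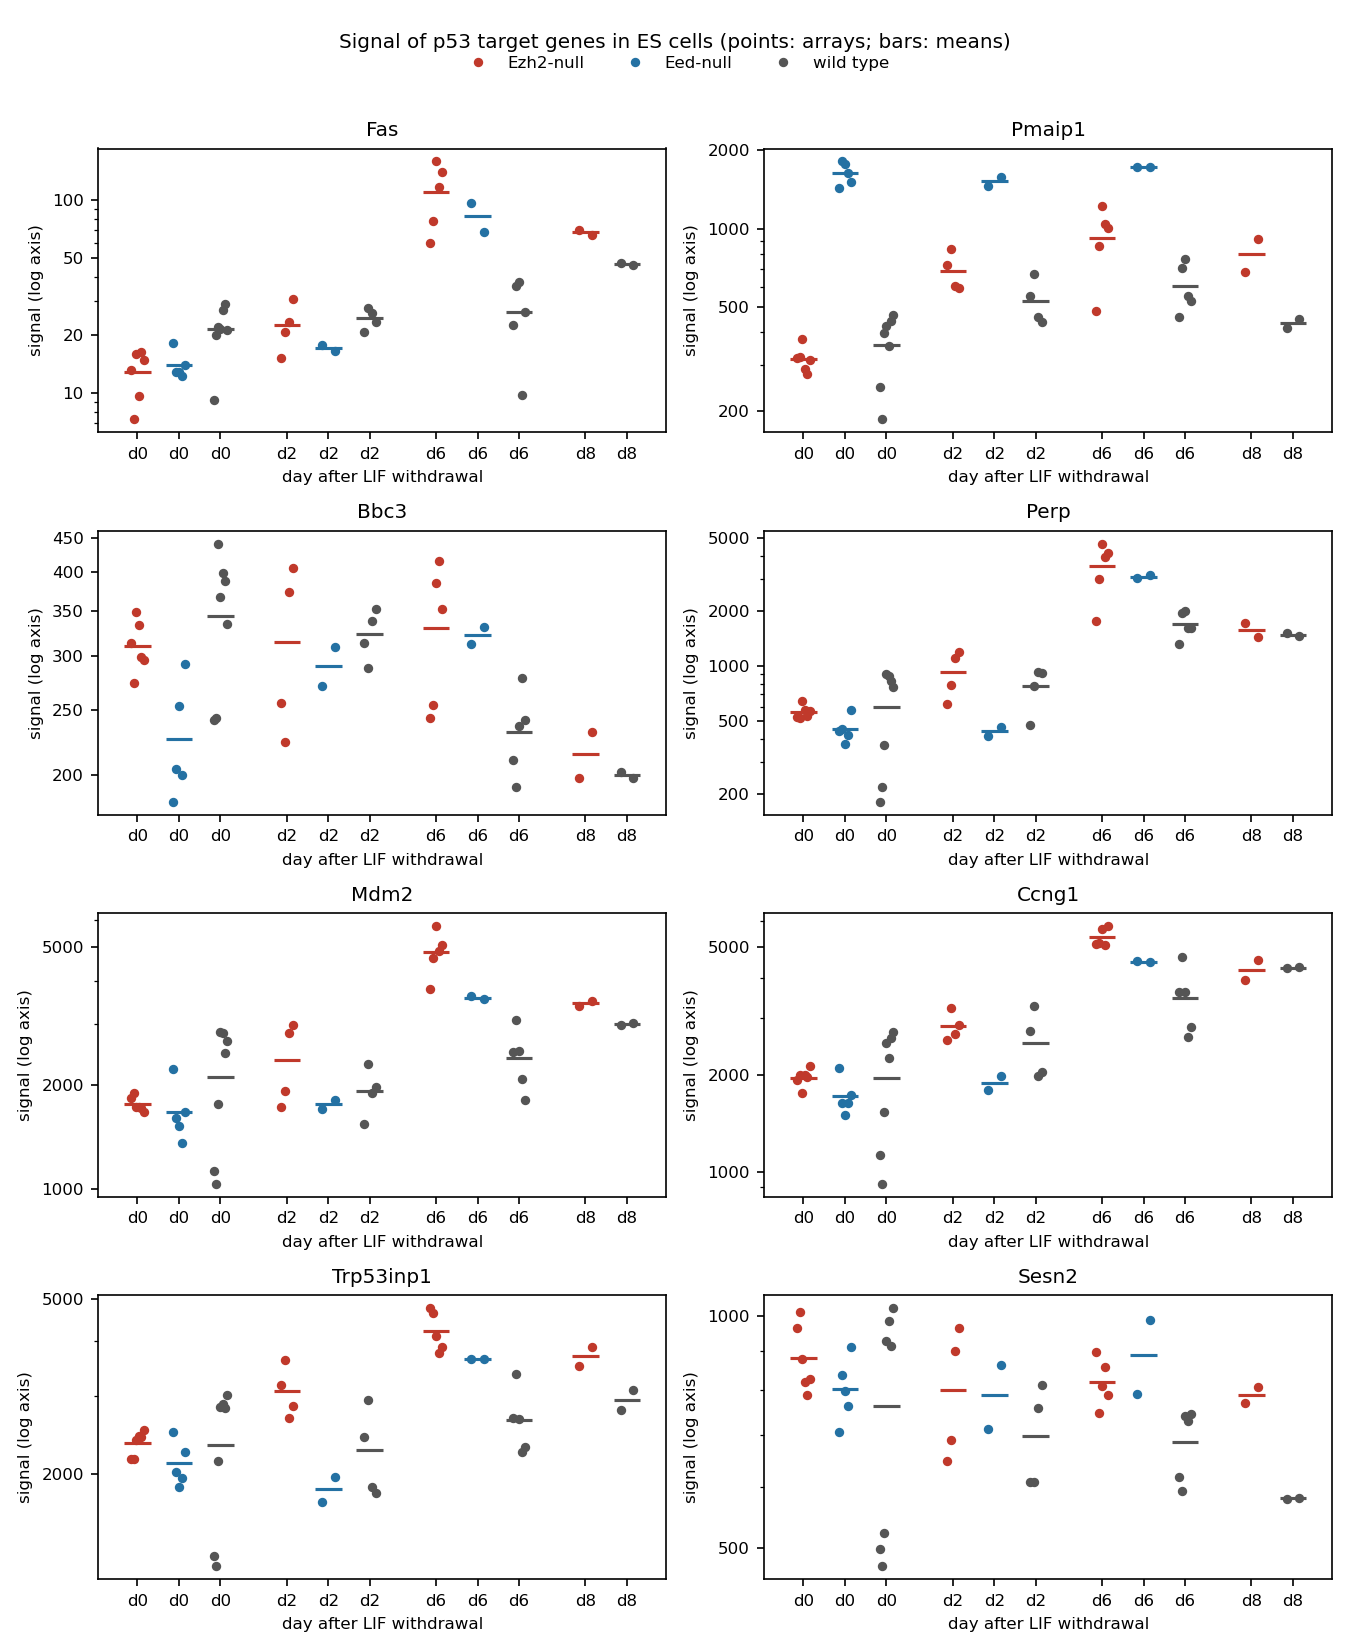
Signal (arbitrary units, log axis) of the 8 genes by day after LIF withdrawal in Ezh2-null (red), Eed-null (blue) and wild-type (grey) ES cells; points are arrays and bars are group means. Pmaip1 is high in Eed-null cells from day 0 (1432.7 to 1808.4). At day 6 all arrays of both mutants lie above wild type for Fas, Mdm2, Trp53inp1 and the leading Sesn2 probe set.

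The first comparison sets each mutant against wild type on a given day. In Ezh2-null against wild-type cells at day 6, Fas rose by 1.26 ± 0.13 (SE; adjusted p = 1e-09; 2.39-fold) and Mdm2 rose by 1.01 ± 0.20 (adjusted p = 9.2e-05; 2.02-fold) by limma. Thus 2 of the 8 were called, both higher, against 3.03% of 13807 genes tested in either direction, and the median change of the 8 was 0.67, against 0.001 over all genes. Another 5 had an adjusted p under 0.05 at under 2-fold: Perp 0.97 ± 0.29, Trp53inp1 0.68 ± 0.17, Ccng1 0.66 ± 0.19, Pmaip1 0.55 ± 0.18 and Bbc3 0.44 ± 0.15 on the log2 scale (SE). Sesn2 had 0.25 ± 0.16 (adjusted p = 0.26). The share of all genes that pass the adjusted p without the minimum fold was not taken, so the 5 cannot be set against it.

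The size of the Ezh2-null difference was not the same in the 2 array sets. Wild-type arrays of day 6 are all J1 in the first set and J1 and CJ7 in the second. Array set and wild-type line are thus partly tied, and the part of each was not tested. In the second set alone Fas had 1.61, Mdm2 1.29 and Perp 1.28, all called. In the first set alone Fas had 0.72 (adjusted p = 0.00072) and Mdm2 0.60 (adjusted p = 0.25), and neither was called. In that set, summed blood and endothelial markers were 6967.6 and 5366.7 in wild-type replicates 1 and 2, against 408.5 to 457.9 in wild-type replicates 3 to 5, and their part in the difference was not tested. Of the 6 markers, 2 were called lower in Ezh2-null against wild-type cells at day 6. Mdm2, at the edge of 2-fold, fell to 0.92 without wild-type replicate 5 and to 0.99 with each array centred on its median.

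Cell type markers also differed at day 6, and their part in these results was not tested. All 5 measured markers of the primitive streak and mesoderm were called lower in each mutant against wild type, with a median change of -3.05 in Ezh2-null and -3.21 in Eed-null cells. Their summed signal was 461.5 to 668.9 in Ezh2-null and 415.3 and 441.5 in Eed-null cells, against 2183.5 to 6757.3 in wild-type cells, without overlap. The signal summed over 7 ES cell markers was 4701.8 to 17037.4 in Ezh2-null and 14889.9 and 15126.9 in Eed-null cells, against 4130.4 to 6796.6 in wild-type cells. In whole cultures, fewer cells of a type and less RNA per cell cannot be told apart. Ezh2-null replicate 3 had the lowest ES cell marker sum of its group (4701.8), inside the wild-type range, and the highest Fas (158.3), Mdm2 (5763.4) and Perp (4659.4) signals of its group. Summed fibroblast markers at day 6 were 5950.9, 4006.1, 2219.3, 1626.5 and 2018.8 in Ezh2-null and 1039.1 and 1066.9 in Eed-null cells, against 1526.4 to 1922.7 in wild type. The 2 Ezh2-null arrays with the highest fibroblast sums, replicates 1 and 2, had the 2 lowest Fas signals of that group. They are also all of its arrays in the first array set, so fibroblast signal and array set cannot be told apart there.

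In Eed-null against wild-type cells, Pmaip1 was the 1 gene of the 8 called on each day. It rose by 2.13 ± 0.17 at day 0 (SE; adjusted p = 5.7e-13), by 1.48 ± 0.25 at day 2 (adjusted p = 0.00014) and by 1.49 ± 0.25 at day 6 (adjusted p = 2e-05). Of all genes tested 2.26% were called at day 0, 1.04% at day 2 and 3.1% at day 6. Fas at day 6 had 0.98 ± 0.18 (adjusted p = 7.1e-05; 1.98-fold), just under the minimum fold, and it was past it in the second array set alone, at 1.04. Mdm2 had 0.60 ± 0.26 (adjusted p = 0.12) and Perp 0.86 ± 0.39 (adjusted p = 0.13) at day 6. Bbc3 at day 0 had -0.53 ± 0.14 (adjusted p = 0.0015), under 2-fold. Fibroblast markers were also high in Eed-null cells at day 0, with sums of 7153.9, 4230, 3702.8, 4239 and 405.3. Pmaip1 itself was 98.8 and 113.9 in MEF, and in the array with the sum of 405.3 it was 1506.9. Endoderm markers were high as well, with 2 of 7 called higher and sums of 522.8 to 1477 in Eed-null cells, against 210.7 to 412.5 in wild-type cells, without overlap. The array with the low fibroblast sum had 522.8, and the part of these markers in the Pmaip1 difference was not tested.

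None of the 8 was called in Ezh2-null against wild-type cells at day 0 (0.0507% of genes tested called), day 2 (0.123%) or day 8 (1.06%). At an unadjusted limma p under 0.05, Fas passed at day 0 (-0.25, lower in the mutant, adjusted p = 0.43), Trp53inp1 at day 2 (0.46, adjusted p = 0.35) and Pmaip1 at day 8. The share of all genes that pass the unadjusted p was not taken, so these are not read as changes. The 95% intervals of the Fas difference were -0.48 to -0.01 at day 0 and -0.07 to 0.77 at day 8. Pmaip1 at day 8 had 0.82 ± 0.29 (SE; adjusted p = 0.15), and the 95% interval of its difference was 0.23 to 1.41.

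**Figure D2:**
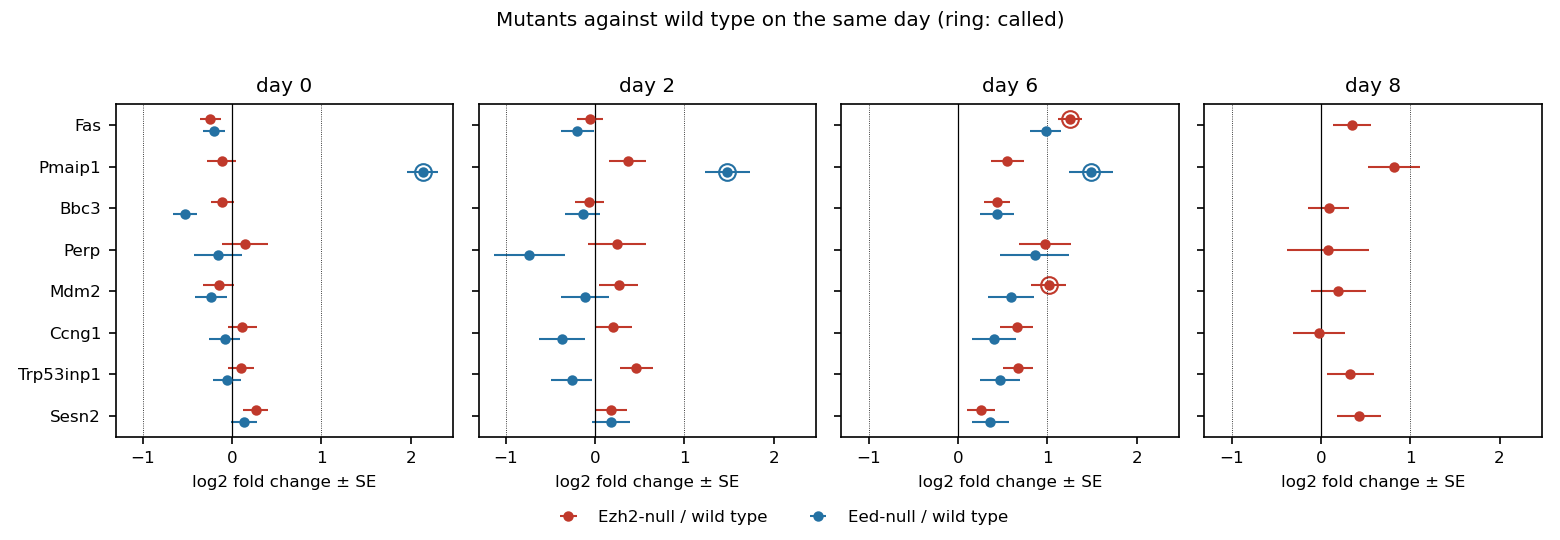
Log2 fold change ± SE of the 8 genes in Ezh2-null (red) and Eed-null (blue) cells against wild-type cells of the same day; dotted lines mark 2-fold and rings mark called changes. The rings are at Pmaip1 in Eed-null cells at days 0, 2 and 6 and at Fas and Mdm2 in Ezh2-null cells at day 6.

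The second comparison follows each genotype through differentiation. In Ezh2-null cells at day 6 against day 0, 5 of the 8 rose and none fell, against 16.3% of genes called in either direction and 8.64% higher. Perp rose by 2.50 ± 0.28, Fas by 1.62 ± 0.13, Ccng1 by 1.44 ± 0.18, Mdm2 by 1.43 ± 0.19 and Pmaip1 by 1.40 ± 0.18 (SE). For each of them all arrays of day 6 lay above all arrays of day 0, and the share of all genes that separate so was not taken. In Eed-null cells 4 of the 8 rose, against 10.1% called in either direction and 5.55% higher: Perp by 2.70 ± 0.39, Ccng1 by 1.38 ± 0.25, Fas by 1.30 ± 0.18 and Mdm2 by 1.10 ± 0.26. Pmaip1, already high at day 0 in those cells, had 0.08 ± 0.25 (adjusted p = 0.82). Of 7 fibroblast markers 3 were called lower in Eed-null cells over that time, and their part in these changes was not tested. Trp53inp1 had 0.84 ± 0.16 in Ezh2-null cells and 0.79 ± 0.22 in Eed-null cells, both with an adjusted p under 0.05 and under 2-fold. Both comparisons stand on separate arrays of each genotype.

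In wild-type cells 1 of the 8 was called at day 6 against day 0 (10.3% of genes in either direction) and 2 at day 8 (11.4%). Perp rose by 1.68 ± 0.27 at day 6 and by 1.501 ± 0.37 at day 8, and Ccng1 by 1.23 ± 0.24 at day 8 (SE). At day 2 none was called (3.43% of genes), and Pmaip1 was the 1 gene with an adjusted p under 0.05 (0.56 ± 0.18, adjusted p = 0.016). Fas had 0.11 ± 0.12 at day 6 (adjusted p = 0.44) and Mdm2 0.26 ± 0.18 (adjusted p = 0.22). Bbc3 had -0.50 ± 0.14 at day 6 and -0.67 ± 0.19 at day 8, both with an adjusted p under 0.05 and under 2-fold.

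The wild-type day 0 arrays bear on each of these values. For Mdm2, Ccng1, Trp53inp1, Sesn2 and Perp, replicates 1 to 3 lay below replicates 4 to 7 without overlap. The share of all genes that split in this way was not taken, so the split is not read as particular to these genes. Perp was 181.1, 218.3 and 370.6 in the first 3 and 771.2 to 897.8 in the other 4, and Mdm2 was 1036.4 to 1757.8 against 2468.7 to 2846. With replicates 4 to 7 only, Perp at day 6 against day 0 had 0.97 and Ccng1 at day 8 had 0.77, and no gene of the 8 was called in wild-type cells on either day. The replicate sets also differ in line: J1 is among the first 3 alone, E14tg1 among the other 4 alone, and CJ7 in both. E14tg1 was not sampled after day 0. Neither the part of line nor what else differed between these arrays was tested.

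In Ezh2-null cells at day 8 against day 0, 4 of the 8 rose (8.58% of genes called). These were Perp (1.44 ± 0.38), Pmaip1 (1.24 ± 0.24), Fas (1.16 ± 0.17) and Ccng1 (1.10 ± 0.24; SE). The ES cell marker sum of these day 8 arrays was 21145.9 and 21556.8, against 4701.8 to 17037.4 in Ezh2-null cells at day 6. Against day 0, 1 of 7 ES cell markers was called lower and 4 of 7 endoderm markers higher. Day 8 is thus not read as a later state than day 6, and the part of these markers was not tested. Ccng1 had 0.99 without day 8 replicate 2, and Perp had an adjusted p of 0.053 without day 8 replicate 1.

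The difference between the day 6 changes was tested as an interaction. The change of Fas was larger in Ezh2-null than in wild-type cells by 1.503 ± 0.18 (SE; adjusted p = 6.2e-08) and that of Mdm2 by 1.17 ± 0.26 (adjusted p = 0.0013), 2 of the 8, against 3.09% of genes called. For Eed-null cells the change of Fas was larger by 1.19 ± 0.21 (adjusted p = 0.0001), 1 of the 8, against 4.69%. Perp had 0.83 ± 0.39 (adjusted p = 0.15) in Ezh2-null and 1.02 ± 0.47 (adjusted p = 0.13) in Eed-null cells, so its larger rise in the mutants did not pass. When only replicates 4 to 7 stood for wild type at day 0, 4 of the 8 were called in each interaction, Perp and Mdm2 among them (Perp 1.54 in Ezh2-null and 1.73 in Eed-null cells; Mdm2 1.62 and 1.29). In the first array set alone none was called for Ezh2-null cells, and Fas had 0.97. The share of all genes called was not taken for these alternative runs, so their counts cannot be set against it. The comparisons of this paragraph share the wild-type arrays.

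**Figure D3:**
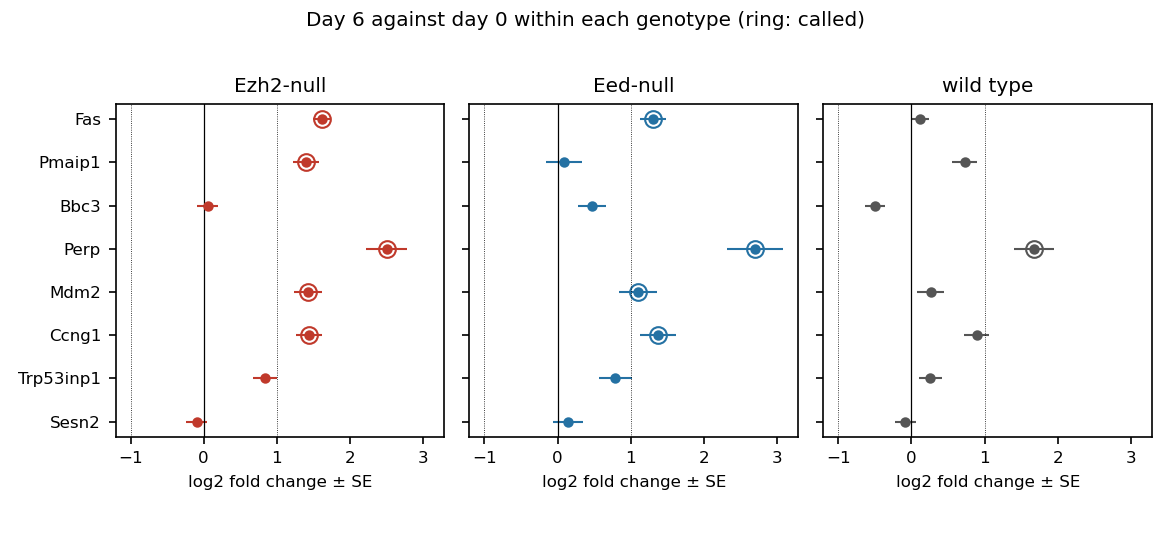
Log2 fold change ± SE of the 8 genes at day 6 against day 0 in each genotype, with rings on called changes and dotted lines at 2-fold. Perp has the largest value in all 3 genotypes (2.50, 2.70 and 1.68), and Fas and Mdm2 are called in both mutants.

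Other p53 genes were read from 3 lists. Of 35 tested genes among 37 other p53 targets, 7 were called in Ezh2-null against wild-type cells at day 6, all higher, against 3.03% of all genes, and the list median was 0.62. Examples were Pltp, a lipid transfer protein (1.65 ± 0.18), Abhd4, a lipase (1.30 ± 0.16), Ptp4a3, a phosphatase (1.12 ± 0.18), and Ei24 (1.00 ± 0.12; SE). In Eed-null cells at day 6, 2 were called, Ptp4a3 (1.80 ± 0.24) and Pltp (1.75 ± 0.24), with a list median of 0.33, against 3.1% of all genes. At day 6 against day 0, 11 rose and none fell in Ezh2-null cells (16.3% of all genes called, 8.64% higher), 12 rose and 1 fell in Eed-null cells (10.1%, 5.55% higher), and 4 rose and 2 fell in wild-type cells (10.3%). The Eed-null count against wild type and the wild-type count lie not far from these shares. Cdkn1a, which encodes the cell cycle inhibitor p21, rose by 2.76 ± 0.19 in Ezh2-null cells over that time and by 1.13 ± 0.18 in wild-type cells. Its change was larger in Ezh2-null cells by 1.63 ± 0.26 (adjusted p = 1.6e-05). For Eed-null cells that difference was called for 4 genes of the list, Cdkn1a not among them, against 4.69% of all genes. At day 0 its signal was 334.2 to 422.3 in Ezh2-null and 410.7 to 823.8 in Eed-null cells, against 299.1 to 620.6 in wild-type cells. Cdkn1a signal at day 6 was 1482.8, 2503.1, 3634.6, 3064.5 and 3274.7 in Ezh2-null and 1734.8 and 1650.2 in Eed-null cells, against 1065.3 to 1318.8 in wild-type cells.

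Among 18 p53 regulators and family members, Cdkn2a was the 1 gene called at day 6 in either mutant against wild type, a count near the shares of all genes called (3.03% and 3.1%). It rose by 2.62 ± 0.19 in Ezh2-null cells (SE; adjusted p = 6.7e-14) and by 1.65 ± 0.26 in Eed-null cells (adjusted p = 6.7e-06). Its signal was 446.1, 673.7, 400.6, 306.3 and 336.5 in Ezh2-null and 186.7 and 210.3 in Eed-null cells, against 23.5 to 69.2 in wild-type cells. Which of the Arf and Ink4a transcripts its probe set reads was not tested. At day 8 Cdkn2a was 413.5 and 555.1 in Ezh2-null cells, against 74.8 and 100.6 in wild-type cells (2.10 ± 0.31, SE). Its day 0 arrays spanned 35.7 to 58.9 in the Ezh2-null group and 12.7 to 111.7 in the Eed-null group, against 8.9 to 20.9 in wild-type cells, so the Ezh2-null arrays already lay apart, at a dim level. Of 18 tested genes among 22 of the BCL2 family and the apoptosis executors, none was called in any of the 7 comparisons of a mutant with wild type, where 0.0507% to 3.1% of all genes were.

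Across cell types the genes went apart. Fas was 287.3 and 347.6 in MEF, 50.4, 51.3 and 34.2 in Sox1-GFP cells, 18.1 and 23.0 in neuronal stem cells and 16.7 and 14.6 in T-GFP cells, against 9.2 to 28.9 in wild-type ES cells at day 0. It rose by 2.71 ± 0.17 in MEF (SE; adjusted p = 4.2e-18) and by 2.73 ± 0.21 in MEF against neuronal stem cells (adjusted p = 8.4e-15). Perp was 124.3 and 95.9 in MEF, 149.0, 148.8 and 283.4 in Sox1-GFP cells, 28.1 and 27.3 in neuronal stem cells and 766.3 and 1405.8 in T-GFP cells, against 181.1 to 897.8 in wild-type ES cells. It fell by 1.92 ± 0.37 in MEF, fell by 3.17 ± 0.37 in neuronal stem cells and fell by 1.30 ± 0.32 in Sox1-GFP cells (SE), the last with overlapping arrays. Pmaip1 was 98.8 and 113.9 in MEF, 52.4 and 57.0 in neuronal stem cells, 204.1 to 338.5 in Sox1-GFP cells and 663.9 and 915.6 in T-GFP cells, against 185.8 to 466 in wild-type ES cells. It fell by 1.45 ± 0.23 in MEF and fell by 2.12 ± 0.23 in neuronal stem cells, and rose by 1.11 ± 0.23 in T-GFP cells.

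Ccng1 was 4140.9 and 4381.6 in neuronal stem cells, against 917.9 to 2714.9 in wild-type ES cells at day 0. It rose by 1.22 ± 0.24 (SE) by its leading probe set. Its other 2 were not called, with 0.18 ± 0.22 (adjusted p = 0.5) and 0.93 ± 0.27 (adjusted p = 0.0029, under 2-fold). Trp53inp1 was 1490.1 and 1863.9 in MEF, against 4060.6 and 4111.4 in neuronal stem cells, and fell by 1.28 ± 0.27 between them. Counted over the 8, MEF had 1 higher and 2 lower (24.1% of genes called), neuronal stem cells 1 higher and 2 lower (23.2%), Sox1-GFP cells 1 lower (13.4%) and T-GFP cells 1 higher (9.5%), each against wild-type ES cells. MEF against neuronal stem cells had 2 higher, Fas and Perp (1.24 ± 0.46), and 1 lower (18.9%). Over 8 genes, counts of 1 to 3 lie close to these background shares. With wild-type replicates 4 to 7 only, Ccng1 in neuronal stem cells had 0.75 and Pmaip1 in T-GFP cells 0.85, neither called, and Mdm2 fell by 1.02 in Sox1-GFP cells, a called change. Bbc3 then fell by 1.11 in neuronal stem cells and fell by 1.08 in MEF, and Mdm2 fell by 1.14 in neuronal stem cells, all called. Without T-GFP replicate 2, or without wild-type day 0 replicate 2, Pmaip1 in T-GFP cells had 0.88 and 0.98. Perp in MEF against neuronal stem cells was no longer called without any 1 of the 4 arrays (adjusted p from 0.056 to 0.14).

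**Figure D4:**
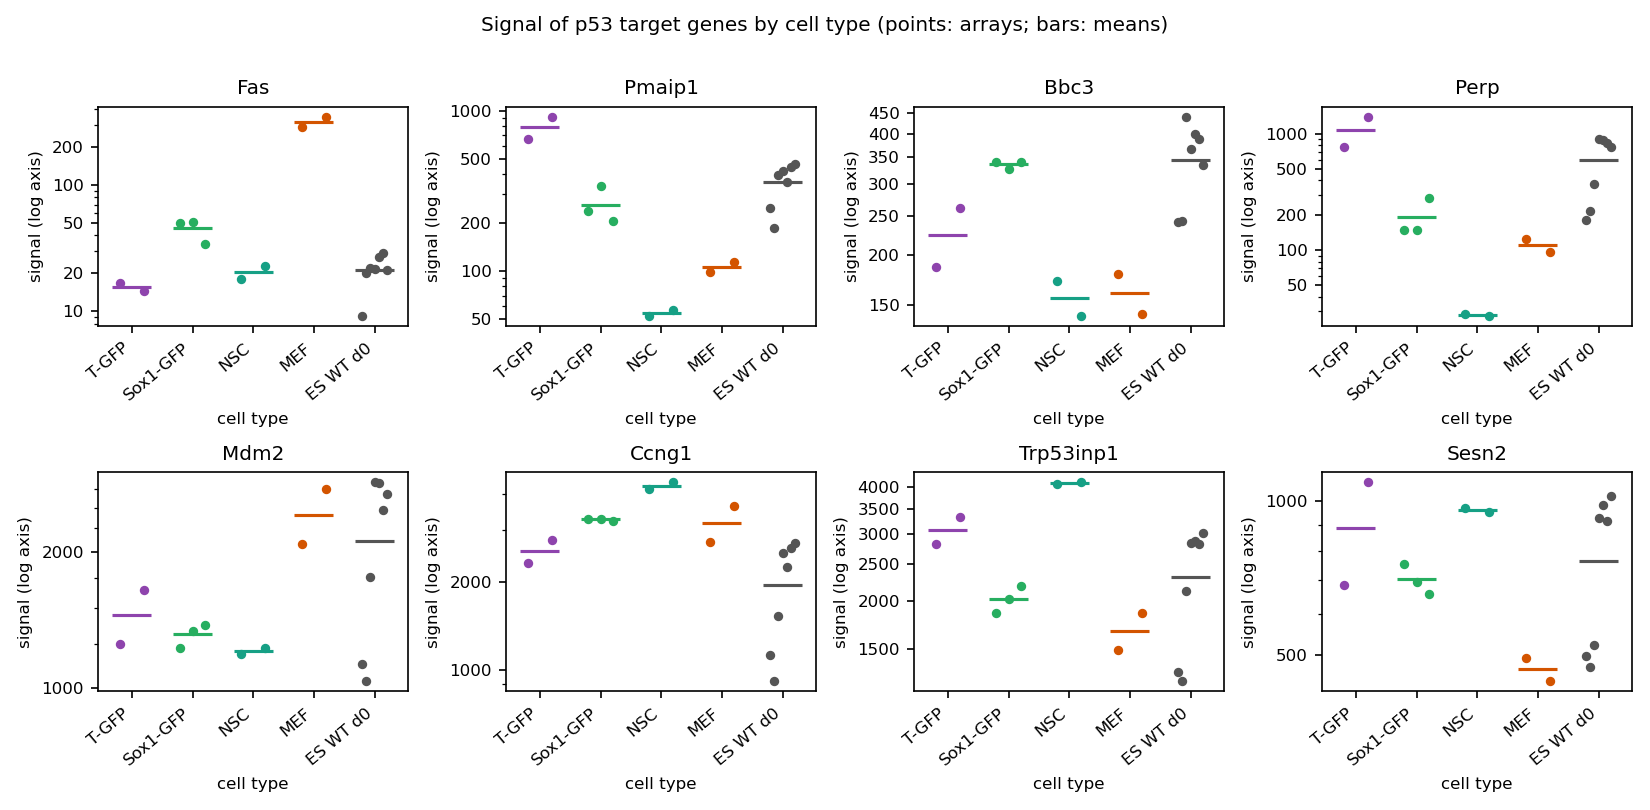
Signal (arbitrary units, log axis) of the 8 genes in the differentiated cell types and in wild-type ES cells at day 0; points are arrays and bars are group means. Fas is highest in MEF (287.3 and 347.6), and Perp and Pmaip1 are lowest in neuronal stem cells.

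The order of the 15 group means differed between the genes. Fas was highest in MEF (mean 317.5) and then in Ezh2-null (110.2) and Eed-null (82.3) cells of day 6, and its means spanned 2.96 on the log2(signal + 32) scale. The arrays of these Ezh2-null and Eed-null groups overlapped. The span on that scale was 5.81 for Perp, 4.34 for Pmaip1, 1.96 for Mdm2 and 1.63 for Ccng1. The lowest means of Fas (12.8) and Perp (27.7) lay below the array medians. Ezh2-null cells at day 6 had the highest mean of Mdm2 (4833), Ccng1 (5366.7) and Perp (3503.6), with Eed-null cells at day 6 next for all 3 (3580, 4493.7 and 3077.2). Pmaip1 was highest in the 3 Eed-null groups (1718.8, 1628.3 and 1515.3), whose arrays overlapped at days 0 and 2 and at days 0 and 6.

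Over the 11 ES cell group means, which share arrays of few lines and days, Fas and Mdm2 had a Pearson correlation of 0.98, Ccng1 and Perp 0.96, and Mdm2 and Ccng1 0.95. Pmaip1 had 0.26 with Fas and 0.16 with Mdm2. Over all 15 group means the first 3 pairs had 0.56, 0.28 and 0.58. The genes with the profile most like that of Fas over the 15 group means were Plcxd2 (0.98), Asap1 (0.97) and Acer2 (0.97). For Pmaip1 they were Prss44 (0.96), Elf3 (0.93) and Hoxa9 (0.92), and for Mdm2 Syt17, Nipal4 and Polk (each 0.92). For Perp they were Ccdc120 (0.97), F11r (0.97) and Esrp2 (0.96), and for Ccng1 Ikzf2 (0.96), Pon2 (0.96) and Cd151 (0.95).

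Several of the genes had more than 1 probe set. The second Mdm2 probe set gave 1.41 ± 0.30 in Ezh2-null against wild-type cells at day 6 (SE, called), and the third, dim one gave 0.39 ± 0.15 (adjusted p = 0.055). At day 6 against day 0 the second was called in both mutants. The third was called in neither, with 0.56 ± 0.14 in Ezh2-null and -0.07 ± 0.20 (adjusted p = 0.81) in Eed-null cells. The other 2 Ccng1 probe sets gave 0.62 ± 0.17 and 0.76 ± 0.21 there. Both were called at day 6 against day 0 in each mutant. In wild-type cells over that time the first had 0.72 ± 0.16 (adjusted p = 2e-04, under 2-fold) and the second was called higher (1.02 ± 0.19). The rise of Ccng1 at day 6 was thus not particular to the mutants. Neither was called in neuronal stem cells against wild-type ES cells (0.18 ± 0.22 and 0.93 ± 0.27). At day 8 against day 0 the first of them was not called in Ezh2-null (0.48 ± 0.22) or wild-type cells (0.58 ± 0.22), and the second was called in both (1.02 ± 0.27 and 1.18 ± 0.27). The second Trp53inp1 probe set was called in Eed-null cells at day 6 (1.12 ± 0.36), where the first had 0.47 ± 0.22. The Sesn2 probe sets disagreed: in wild-type cells at day 6 against day 0 the second fell by 1.55 ± 0.23, where the leading one had -0.09 ± 0.14. The second also fell by 1.12 ± 0.23 in Eed-null against wild-type cells at day 0, where the leading one had 0.13 ± 0.14. No direction is given for Sesn2 on that account.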

How the data were processed

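Total RNA was extracted with Trizol, per the labels' protocols, and hybridised to Affymetrix mouse arrays. The authors deposited 1 linear signal intensity per probe set and array; their summarisation and scaling were not given in the sources used here. They ranged from 0.4 to 33985.898. The number of arrays per group, not depth, limits the precision.

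Of 45037 probe sets, 34945 had 1 gene symbol in the platform annotation, 932 several and 9160 none; only the first kind was kept. Each of 18193 genes was read from its brightest probe set by the mean of 53 arrays, and the 13807 genes above the array median on at least 2 arrays were tested. limma 3.58.1 in R 4.3.3 was fitted to log2(value + 32) with 1 mean for each of 15 groups (38 residual and 4.6 prior degrees of freedom), for 20 comparisons, with Benjamini-Hochberg adjustment within each. Wild-type lines were pooled. The script was tested on simulated data. Intervals are 95%.

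The array sets were split by the leading component (57.1% of the variance) of the differences between 5112 pairs of probe sets that share a gene. Ezh2-null and wild-type replicates with equal numbers deviated alike on day 2 (correlations 0.57 to 0.7, 4 pairs) and day 6 (0.38 to 0.72, 5 pairs), so these were read as pairs, although the array sets follow the numbers. Alternatives were other normalisations, pseudocounts, filters, probe sets, blocks and single arrays left out; those on single array sets, wild-type replicates 1 to 3, crossed numbers and each probe set were chosen after seeing the data.

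The genes, the lists and the comparisons were chosen with earlier results of these data known. All listed genes are named, of each other list up to 4 called genes with the smallest p, and the 3 genes with the most similar profile of each member called in 3 or more comparisons.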

Additional observations from a re-analysis of the deposited data

Results flagged for a closer look

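The day 6 change differed between genotypes by a test of the difference for 2 genes. For Fas the change was larger in Ezh2-null than in wild-type cells by 1.503 and larger in Eed-null than in wild-type cells by 1.189 on the log2 scale. For Mdm2 it was larger in Ezh2-null than in wild-type cells by 1.166. The Fas signal of Eed-null replicate 1 at day 0, 18.2, lay far from the others of its group, the next being 14. Of 56 groups of arrays and genes examined this was the 1 such array, and chance alone marks about 1 in 20. That array also had the highest fibroblast marker sum of its group (7153.9).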

How the results depend on the processing

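Over the 8 genes, no called change turned its sign under any alternative run. The counts of called genes changed as follows. The share of all genes called was not taken for the alternative runs, so these counts cannot be set against it. In Ezh2-null against wild-type cells at day 6 the count of 2 became 1 with arrays centred on their median, with quantile normalisation, with the mean of all probe sets and with the line as a random block, each time by loss of Mdm2 (0.88 to 0.99). It was 0 with a pseudocount 4 times higher and in the first array set alone, 7 with no minimum fold, and 1 to 3 with single arrays left out. Mdm2 was lost without wild-type replicate 4 or 5 or Ezh2-null replicate 3 or 5 (0.92 to 0.99). Perp was gained without wild-type replicate 2 or 3 or Ezh2-null replicate 1 or 2 (1.01 to 1.19). At day 0 the count of 0 became 1 with wild-type replicates 1 to 3 only.

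In Eed-null against wild-type cells at day 6 the count of 1 became 2 with a pseudocount 4 times lower, with no minimum fold and in the second array set alone, and was 1 to 2 with single arrays left out. Fas was gained without wild-type replicate 2 or 3 or Eed-null replicate 2 (1.04 to 1.16). At day 0 the count of 1 became 2 with no minimum fold.

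In wild-type cells at day 2 against day 0 the count of 0 became 1 with the replicate block and with no minimum fold, and 2 with wild-type replicates 1 to 3. At day 6 the count of 1 became 2 with the array set as a block, the replicate block, cell line as a random block or the first set alone, 0 with wild-type replicates 4 to 7, 3 with replicates 1 to 3 and 4 with no minimum fold. At day 8 the count of 2 became 1 with the mean of all probe sets or only the arrays compared, 4 with the replicate block, 0 with wild-type replicates 4 to 7 and 5 with no minimum fold. In Ezh2-null cells at day 8 the count of 4 became 7 with no minimum fold.

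In T-GFP cells the count of 1 became 2 with quantile normalisation or a pseudocount 4 times lower, 0 with a pseudocount 4 times higher or wild-type replicates 4 to 7, 4 with the replicate block or wild-type replicates 1 to 3, and 3 with no minimum fold, and was 0 to 2 with single arrays left out. Perp was gained there without T-GFP replicate 1 (1.42) or wild-type replicate 4, 5, 6 or 7 (1.10 to 1.13). In Sox1-GFP cells the count of 1 became 2 with wild-type replicates 4 to 7 and 4 with no minimum fold. With no minimum fold the count of 3 became 6 in neuronal stem cells, 6 in MEF and 5 in MEF against neuronal stem cells. With single arrays left out these were 3 to 4, 3 to 4 and 2 to 4. Bbc3 was gained in neuronal stem cells and in MEF without replicate 1 of either, or without wild-type replicate 1 or 2 (-1.10 to -1.02).

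For the difference of the day 6 change, the Ezh2-null count of 2 became 1 with a pseudocount 4 times higher or wild-type replicates 1 to 3, 4 with replicates 4 to 7 and 0 in the first set alone. The Eed-null count of 1 became 2 with arrays centred, quantile normalisation, a pseudocount 4 times lower or no minimum fold, 0 with a pseudocount 4 times higher and 4 with wild-type replicates 4 to 7, and was 1 to 3 with single arrays left out.

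The cause of these changes was not tested, except that no minimum fold adds genes by construction. The replicate block moved no count by over 1.5 times beyond those named. In the paired comparisons of Ezh2-null with wild-type cells at days 2 and 6 it left 0 and 2 called, as without it. Elsewhere the replicates share only a number. At day 8 the 2 pairs of Ezh2-null and wild-type arrays had correlations of -0.2, and with the numbers crossed the count was again 0.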
